A study of Mus musculus with 12 samples.

Results

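The genes described here are 10 genes of cytotoxic granules and natural killer (NK) cells: Gzma, Gzmb, Gzmk, Prf1, Nkg7, Klrd1, Ncr1, Klrb1c, Eomes and Tbx21. They were picked by symbol, not by their values, and all 10 were found among the 56832 gene entries of the count table. All 10 also passed the filter on low counts, which left 15758 genes. The libraries were made from cells sorted out of mouse bone marrow by flow cytometry as CD45+, F4/80+, Ly6g- and Ly6c-, a gate meant to hold macrophages. Leukemic mice carried late-stage disease from transplanted cells of bcCML, a mouse model of blast-crisis chronic myeloid leukemia, and were sampled at day 11. Non-leukemic mice were healthy, and no transplant is stated for them. Each condition was represented by 6 libraries, 3 from females and 3 from males. Strain, age, donor sex of the transplanted cells and whether mice were pooled are not given in the sources used here. The study asked how the leukemic marrow shapes its macrophages.

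Cytotoxic lymphocytes, which are NK cells and CD8 T cells, kill by releasing granules onto a target cell. Perforin, the product of Prf1, forms pores through which granzymes enter, and granzymes are serine proteases that start cell death inside. NK cells recognize targets through activating and inhibitory receptors that are encoded in the germline. Both cell types depend on the T-box transcription factors T-bet (Tbx21) and Eomes for their effector genes. Macrophages are not known for perforin killing, but they supply cytokines such as IL-15 that maintain NK cells. In a bulk sample, fewer cells of a type and less RNA per cell cannot be told apart.

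Most of the 10 genes lie far from each other in the genome. Gzma and Gzmk, however, are neighbours on chromosome 13 with 0 protein-coding genes between them, and Gzmb lies on chromosome 14 next to Gzmc. Klrd1 and Klrb1c both lie in the NK gene complex of chromosome 6, with 20 protein-coding genes between them. Ncr1 and Nkg7 lie on chromosome 7, Eomes on chromosome 9, Prf1 on chromosome 10 and Tbx21 on chromosome 11. Of the 10 genes, 9 had promoter windows among the RefSeq sequences used here (build GRCm38.p6), and Klrd1 had none. Each window ran 250 bases upstream to 50 bases downstream of the gene start and was searched on both strands for the T-box letters GGTGTGA and the RUNX letters TGTGGTT, which do not overlap. T-bet and Eomes belong to the T-box family, and RUNX factors act in cytotoxic lymphocytes. The T-box letters were found in 2 of the 9 genes, Nkg7 and Gzmk, against 4.6% of all genes with windows. The RUNX letters were found in 3 of the 9, Gzma, Gzmb and Ncr1, against 6.09% of all genes. The 250 bases upstream of the 3 granzyme genes and of Nkg7 are shown because the granzymes are compared with each other below and Nkg7 had the highest level per kilobase. They are written 5′ to 3′ on the gene's strand, with a motif in capitals where it was found.
Gzma at chr13:113100982-113101231, minus strand: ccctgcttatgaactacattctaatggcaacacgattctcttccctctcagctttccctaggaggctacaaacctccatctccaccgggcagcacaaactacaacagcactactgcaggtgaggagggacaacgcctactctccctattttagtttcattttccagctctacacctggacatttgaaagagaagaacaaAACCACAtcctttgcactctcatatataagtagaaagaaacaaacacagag
Gzmk at chr13:113180966-113181215, minus strand: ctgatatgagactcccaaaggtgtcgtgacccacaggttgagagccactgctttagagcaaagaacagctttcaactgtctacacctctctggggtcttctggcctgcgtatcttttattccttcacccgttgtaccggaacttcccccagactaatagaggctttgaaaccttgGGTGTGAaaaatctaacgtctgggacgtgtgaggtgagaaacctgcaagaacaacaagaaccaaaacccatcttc
Gzmb at chr14:56262335-56262584, minus strand: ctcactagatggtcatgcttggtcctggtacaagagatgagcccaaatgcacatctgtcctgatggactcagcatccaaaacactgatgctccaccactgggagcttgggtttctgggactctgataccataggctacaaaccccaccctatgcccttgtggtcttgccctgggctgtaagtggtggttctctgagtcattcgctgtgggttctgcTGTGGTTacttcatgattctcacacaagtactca
Nkg7 at chr7:43436888-43437137, plus strand: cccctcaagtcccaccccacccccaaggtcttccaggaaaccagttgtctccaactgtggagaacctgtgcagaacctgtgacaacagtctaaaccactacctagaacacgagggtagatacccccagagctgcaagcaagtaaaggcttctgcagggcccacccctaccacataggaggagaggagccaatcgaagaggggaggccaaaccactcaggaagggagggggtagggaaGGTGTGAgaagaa
Gzma carried the RUNX letters on the opposite strand, as AACCACA at positions -51 to -45 from the start, and Gzmb carried them on its own strand at -34 to -28. The T-box letters stood at -75 to -69 in Gzmk and at -13 to -7 in Nkg7. The neighbours Gzma and Gzmk thus shared neither match in these windows. A match describes the letters and is no evidence of binding.

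Total counts were 22437689 to 30014855 in leukemic and 16911827 to 26611831 in non-leukemic libraries, so that the 3 counts that a count of 0 allows were 0.1 to 0.177 CPM, a unit that scales each count by its library's total. Female leukemic replicate 1 stood apart by its 17891 detected genes, since every other library had 19521 to 21247. Male non-leukemic replicate 3 was known from earlier results to stand apart. The gate was meant to hold macrophages, and 10 macrophage markers were read, none of which was at 0. Their summed level was 484 to 1155 CPM in leukemic and 1155 to 4399 CPM in non-leukemic libraries. Without female leukemic replicate 2 the lowest leukemic sum was 902 CPM, and without male non-leukemic replicate 3 the highest non-leukemic sum was 1628 CPM. Adgre1, which encodes F4/80, measured 28.4 to 60.6 CPM in leukemic and 75.9 to 258 CPM in non-leukemic libraries, or 75.9 to 112 CPM without male non-leukemic replicate 3.

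All 10 genes rose in the leukemic libraries. The log2 fold change ran from 0.72 for Klrb1c to 5.35 for Gzmk, with a median of 2.01, while the median over all genes tested was -0.01. The test was the quasi-likelihood F test of edgeR with Benjamini-Hochberg adjustment over all genes, and the limit for a call was an adjusted p of 0.05. By that rule 8.71% of all genes tested were called higher. For 8 of the 10 genes every leukemic library lay above every non-leukemic library, as was the case for 5.05% of all genes tested. The exceptions were Klrb1c and Tbx21. Without the 2 libraries that stood apart 9 of the 10 rose, as did 2421 of all 16300 genes tested. Klrb1c, at 0.58 on the log2 scale, did not pass there (adjusted p = 0.111, edgeR). The summed level of the 10 genes was 922 to 1810 CPM in leukemic and 257 to 535 CPM in non-leukemic libraries. Nkg7 alone, uncorrected for length, made up 45.6% to 62.7% of that sum in leukemic and 60.4% to 79.0% in non-leukemic libraries.

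**Figure D1:**
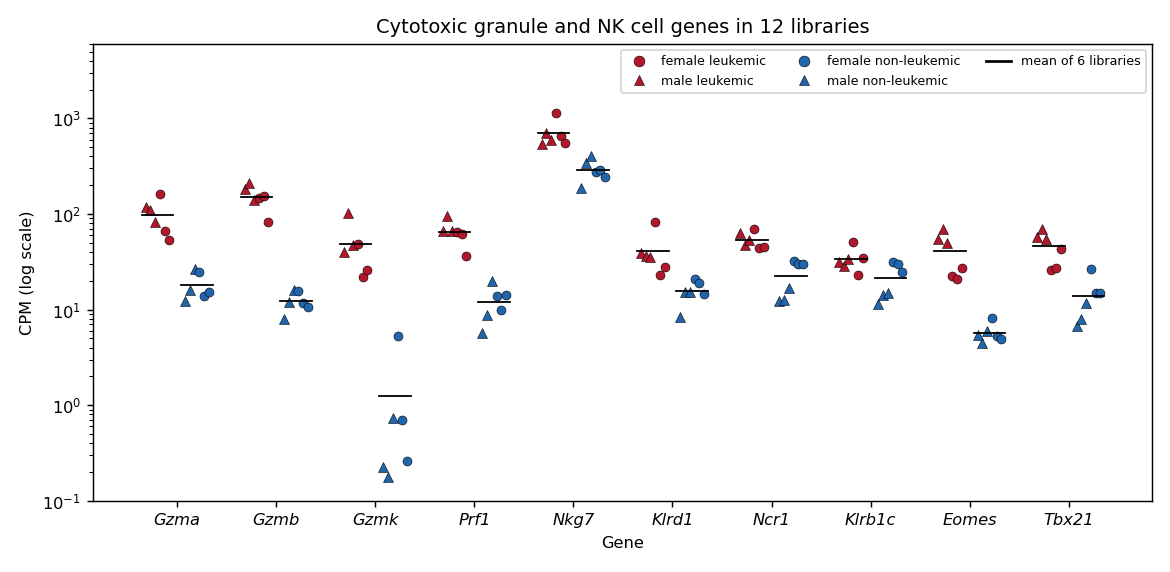
CPM of the 10 genes (log axis) in each library, with circles for females, triangles for males, red for leukemic, blue for non-leukemic and a bar at the mean of 6 libraries. All leukemic points lie above all non-leukemic points for 8 genes, with overlap for Klrb1c and Tbx21, and Gzmk spans the widest range, at 22.0 to 103 CPM in leukemic against 0.177 to 5.31 CPM in non-leukemic libraries.

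Among the granule proteases, Gzmb had the lowest p and Gzmk the largest fold change of the 10. Gzmb encodes granzyme B, the granzyme that cuts caspases and their substrates after aspartate. Its lowest, median and highest levels were 81.9, 150.4 and 209 CPM in leukemic libraries and 8.07, 11.9 and 15.9 CPM in non-leukemic libraries. The lowest leukemic library was thus well above the highest non-leukemic library, and the log2 fold change was 3.53 ± 0.24 (SE, adjusted p = 1.88e-06, edgeR). Gzmk encodes granzyme K, a tryptase made by subsets of memory and exhausted CD8 T cells. It was at 22.0, 44.1 and 103 CPM in leukemic libraries (lowest, median and highest) and at 0.177, 0.481 and 5.31 CPM in non-leukemic libraries. Male leukemic replicate 2 was the highest of the leukemic libraries and female non-leukemic replicate 1 the highest of the non-leukemic ones. The log2 fold change of Gzmk was 5.35 ± 0.83 (adjusted p = 0.000804, edgeR). It rests on 157 counts in all 6 non-leukemic libraries, of which 111 came from female non-leukemic replicate 1, against 7803 counts in the leukemic libraries. Without that library the log2 fold change was 6.74. Gzma encodes granzyme A, the other abundant tryptase. It was at 52.9, 95.6 and 164 CPM in leukemic and at 12.4, 15.6 and 26.6 CPM in non-leukemic libraries, a log2 fold change of 2.39 ± 0.33 (adjusted p = 0.000312, edgeR).

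Prf1, the perforin gene, was at 36.7, 65.5 and 94.4 CPM in leukemic libraries (lowest, median and highest) and at 5.71, 11.9 and 20.0 CPM in non-leukemic libraries. The groups did not overlap, and the log2 fold change was 2.33 ± 0.30 (adjusted p = 0.000224, edgeR), close to that of Gzma. Nkg7 encodes a granule membrane protein needed for efficient granule release. It was at 545, 625 and 1135 CPM in leukemic and 186, 282 and 408 CPM in non-leukemic libraries. Its log2 fold change was 1.19 ± 0.26 (adjusted p = 0.00651, edgeR), the second smallest of the 10. Female leukemic replicate 1 held the highest Nkg7 level, and without it the log2 fold change was 0.95.

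The 3 NK receptor genes rose by 0.72 to 1.36 on the log2 scale, below the 2.33 to 5.35 of the granzymes and perforin. Ncr1 encodes the activating receptor NKp46, which in mice is largely restricted to NK cells and some other innate lymphoid cells. It was at 44.1, 50.9 and 69.6 CPM in leukemic and at 12.2, 23.4 and 32.6 CPM in non-leukemic libraries, without overlap. Its log2 fold change was 1.31 ± 0.23 (adjusted p = 0.00176, edgeR). Klrd1 encodes CD94, which pairs with NKG2 chains to read the MHC class Ib molecule Qa-1 and is also made by activated CD8 T cells. Its lowest, median and highest levels were 22.96, 36.0 and 82.0 CPM in leukemic and 8.29, 15.2 and 20.7 CPM in non-leukemic libraries. The log2 fold change of Klrd1 was 1.36 ± 0.32 (adjusted p = 0.00977, edgeR), and female leukemic replicate 1 was again the highest library. Without it the log2 fold change of Klrd1 was 0.97.

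Klrb1c encodes NK1.1, the antigen used to mark NK cells in C57BL/6 mice. It was at 22.7, 32.6 and 51.3 CPM in leukemic and at 11.4, 19.9 and 31.6 CPM in non-leukemic libraries, and the groups overlapped. Its log2 fold change of 0.72 ± 0.23 (adjusted p = 0.0455, edgeR) was the smallest of the 10 and lay at the threshold. Over the 12 fits that left out 1 library its adjusted p ran from 0.00482 to 0.0978 (edgeR), and it passed in 3 of them, those without female leukemic replicate 2, female leukemic replicate 3 and female non-leukemic replicate 1. Reads may be shared with the other Klrb1 genes beside it, and with Gm44511, a predicted gene on the same strand that had 0 counts.

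Both T-box factor genes rose. Eomes, which separates NK cells from type 1 innate lymphoid cells, was at 20.7, 38.7 and 69.2 CPM in leukemic libraries (lowest, median and highest). In non-leukemic libraries it was at 4.49, 5.39 and 8.23 CPM. The log2 fold change of Eomes was 2.61 ± 0.27 (adjusted p = 4.56e-05, edgeR), and the groups were far apart. Gm33460, a predicted gene that overlaps an exon of Eomes on the opposite strand, had 98 counts in leukemic and 26 in non-leukemic libraries, against 6579 and 746 for Eomes. Tbx21 encodes T-bet, the factor that drives interferon gamma in NK cells, type 1 innate lymphoid cells and Th1 cells. It was at 25.7, 48.9 and 69.5 CPM in leukemic and at 6.66, 13.3 and 26.6 CPM in non-leukemic libraries. A single non-leukemic library, female replicate 1, reached above the lowest leukemic library. The log2 fold change of Tbx21 was 1.68 ± 0.35 (adjusted p = 0.00531, edgeR).

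Per kilobase of exon, the order of the 10 genes differed between the conditions. In leukemic libraries Nkg7 led at 762 ± 245 CPM per kilobase (SD, n = 6), followed by Gzmb at 106 ± 29.8 and Gzma at 98.0 ± 39.9, which lay within each other's spread. Ncr1 (34.9 ± 6.78), Gzmk (34.5 ± 20.9) and Klrd1 (31.7 ± 16.5) did not differ beyond their spread. Prf1 (25.2 ± 7.09), Tbx21 (18.6 ± 7.06), Klrb1c (11.4 ± 3.24) and Eomes (9.81 ± 4.83) followed. Each differed from the gene before it by no more than the sum of both SDs. In non-leukemic libraries Nkg7 stood first at 318 ± 84.4 CPM per kilobase and Gzma second at 18.0 ± 5.94. Then came Ncr1 (14.6 ± 6.18), Klrd1 (12.1 ± 3.34), Gzmb (8.57 ± 2.08), Klrb1c (7.14 ± 2.95), Tbx21 (5.56 ± 2.87) and Prf1 (4.66 ± 1.95), again with neighbours in the order overlapping. Eomes (1.38 ± 0.317) and Gzmk (0.889 ± 1.45) were last. Gzmk was thus the lowest of the 10 in non-leukemic libraries and in the middle of the order in leukemic libraries, and Gzmb was second in leukemic and in the middle in non-leukemic libraries.

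Markers of T cells moved with the 10 genes. All 15 T cell markers rose, against 8.71% of all genes tested, with a median log2 fold change of 3.37. Their summed level was 567 to 1868 CPM in leukemic and 88.4 to 196 CPM in non-leukemic libraries. Without female leukemic replicate 2 the lowest leukemic sum was 911 CPM, and without female non-leukemic replicate 1 the highest non-leukemic sum was 126 CPM. None of the 15 was at 0. Cd3e, a signalling chain of the T cell receptor, was at 104 ± 48.2 CPM in leukemic and 8.72 ± 3.82 CPM in non-leukemic libraries (SD, n = 6). Its log2 fold change was 3.56 ± 0.38 (adjusted p = 5.23e-05, edgeR). Cd8a, a CD8 chain gene, had 25.1 ± 8.88 CPM in leukemic and 3.26 ± 0.759 CPM in non-leukemic libraries (SD, n = 6). Of 10 NK cell markers, 4 of which are among the genes described here, 9 rose, with a median of 1.34. Their sum was 238 to 490 CPM in leukemic and 95.0 to 189 CPM in non-leukemic libraries, and none was at 0. The part of T cell and NK cell numbers in the rise of the 10 genes was not tested.

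Ncr1 was set against the T cell gene Cd3e and against Gzmk in ratios within a library. Each ratio was taken on log2(CPM + 0.5) and compared by a two-sided exact permutation test over the 924 arrangements of the libraries, whose smallest p is 0.00216, with adjustment over the 6 ratios computed. The ratios were chosen with earlier results of these data known, so the p values describe the separation and are no independent test. Ncr1 over Cd3e was -0.83 ± 0.61 in leukemic and 1.283 ± 0.43 in non-leukemic libraries (SD, n = 6), and every leukemic value lay below every non-leukemic value. The difference was -2.11 (exact permutation, adjusted p = 0.0026). Gzmk over Ncr1 was -0.33 ± 0.75 in leukemic and -4.12 ± 0.95 in non-leukemic libraries, a difference of 3.79 (exact permutation, adjusted p = 0.0026). The groups did not overlap in either ratio. The difference for Gzmk over Ncr1 was 4.55 with 0.1 CPM added in place of 0.5 and 2.66 with 2 CPM.

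Within the granule genes, Gzmb gained on Gzma and Prf1. Gzma over Gzmb was -0.67 ± 0.46 in leukemic and 0.51 ± 0.19 in non-leukemic libraries (SD, n = 6), a difference of -1.18 (exact permutation, adjusted p = 0.0026). Prf1 over Gzmb was -1.22 ± 0.14 in leukemic and -0.10 ± 0.38 in non-leukemic libraries, a difference of -1.12 (exact permutation, adjusted p = 0.0026). The leukemic values of Prf1 over Gzmb spread less than those of the other ratios, at -1.46 to -1.08. Gzmk over its neighbour Gzma was -1.12 ± 0.62 in leukemic and -3.88 ± 0.94 in non-leukemic libraries, a difference of 2.76 (exact permutation, adjusted p = 0.0026). That difference was 3.51 with 0.1 CPM added and 1.66 with 2 CPM. Eomes over Tbx21 was -0.24 ± 0.24 in leukemic and -1.08 ± 0.53 in non-leukemic libraries. Its difference of 0.84 passed (exact permutation, adjusted p = 0.00649), although the groups overlapped. All 6 differences had the same sign within males and within females, where no test was made.

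**Figure D2:**
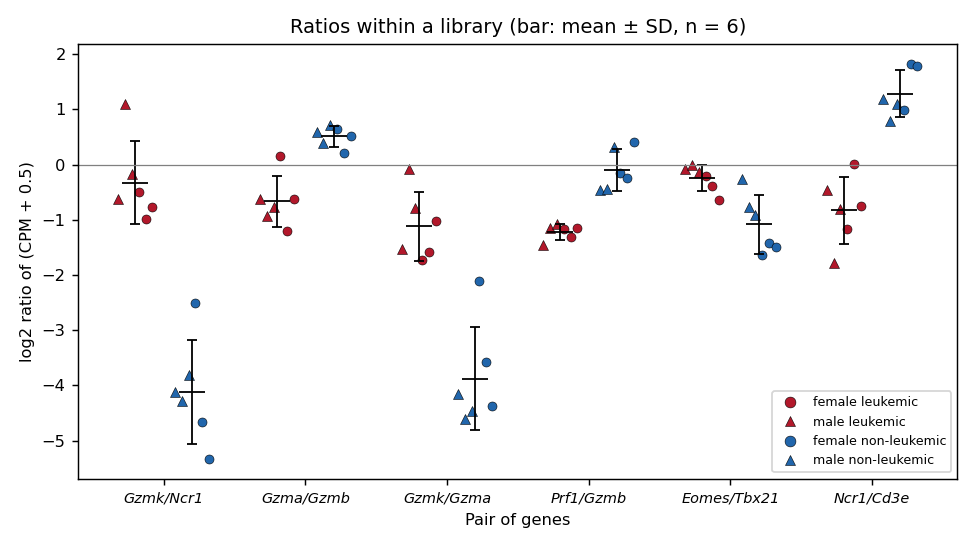
Log2 ratio of CPM + 0.5 for 6 pairs of genes in each library, with circles for females, triangles for males, red for leukemic, blue for non-leukemic, and bars for the mean ± SD of 6 libraries. The 2 conditions do not overlap for any pair but Eomes/Tbx21, and Gzmk/Ncr1 has a mean of -0.33 in leukemic against -4.12 in non-leukemic libraries.

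The leukemia effect was then read in each sex. In females, 6 of the 10 genes rose (edgeR, adjusted p under 0.05), against 3.84% of all genes tested: Gzma, Gzmb, Gzmk, Prf1, Nkg7 and Eomes. The log2 fold changes of the other 4 in females were 1.36 for Klrd1, 0.80 for Ncr1, 0.76 for Tbx21 and 0.38 for Klrb1c. In males, 7 of the 10 rose, against 3.34% of all genes: Gzma, Gzmb, Gzmk, Prf1, Ncr1, Eomes and Tbx21. The log2 fold changes of the other 3 in males were 1.36 for Klrd1, 1.06 for Klrb1c and 0.81 for Nkg7. Every leukemic library lay above every non-leukemic library of its sex for 8 of the 10 genes in females, as for 13.3% of all genes, and for all 10 in males, as for 23.7% of all genes. Without female non-leukemic replicate 2, 3 of the 10 genes rose in females (Gzma, Gzmb and Eomes), as did 266 of all 16664 genes tested.

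**Figure D3:**
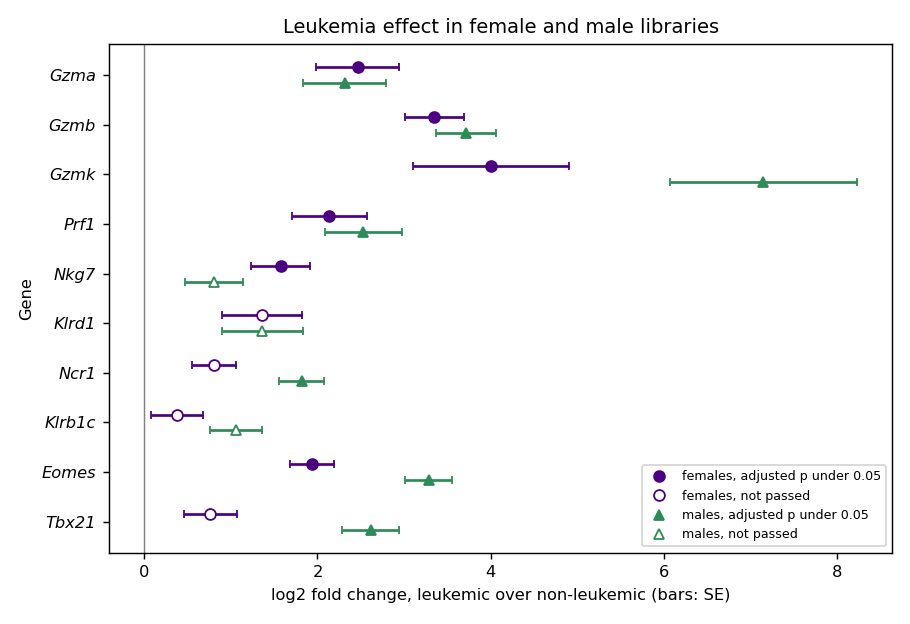
Log2 fold change, leukemic over non-leukemic, of each gene in females (purple circles) and males (green triangles), with SE bars and filled symbols where the adjusted p was under 0.05. Tbx21, Eomes and Ncr1 have lower values in females, at 0.76, 1.94 and 0.80, than in males, at 2.61, 3.28 and 1.82. With edgeR and limma-voom no gene of the 10 passed the test of that difference, while with DESeq2 Tbx21 did.

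The difference between the sexes in the leukemia effect passed for 0 of the 10 genes and for 0% of all genes with edgeR. At an unadjusted p under 0.05, 4 of the 10 had the lower effect in females, against 2.25% of all genes tested, and 925 genes passed that level in either direction. They were Tbx21, Eomes, Ncr1 and Gzmk. Tbx21 had a log2 fold change of 0.76 ± 0.31 in females and 2.61 ± 0.32 in males, a difference of -1.85 ± 0.44 (SE, adjusted p = 0.815, edgeR). With DESeq2 the difference for Tbx21 passed (adjusted p = 0.0442), and DESeq2 called 10 genes higher and 13 lower in all. Under the other alternatives fitted for this difference, limma-voom among them, 0 of the 10 passed. Eomes had 1.94 ± 0.26 in females and 3.28 ± 0.27 in males, a difference of -1.35 ± 0.36 (adjusted p = 0.815, edgeR). Ncr1 had 0.80 ± 0.25 in females and 1.82 ± 0.26 in males, a difference of -1.02 ± 0.36 (adjusted p = 0.819, edgeR). Gzmk had 4.01 ± 0.90 in females and 7.15 ± 1.08 in males, a difference of -3.14 ± 1.281 (adjusted p = 0.819, edgeR). That of Gzmk was -0.99 without female non-leukemic replicate 1 (unadjusted p = 0.343, edgeR), and its male value rests on 25 counts in the 3 male non-leukemic libraries. Its unadjusted p also exceeded 0.05 without female leukemic replicate 2, female leukemic replicate 3, male leukemic replicate 2, or male non-leukemic replicate 1 or 2 (0.0609 to 0.0764, edgeR).

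The levels behind these differences were compared between the sexes in each condition, a comparison added after the values were seen. In non-leukemic libraries, 0 of the 10 genes passed (0% of all genes, edgeR), and 4 were higher in females at an unadjusted p under 0.05, against 1.95% of all genes: Ncr1, Klrb1c, Tbx21 and Gzmk. For the first 3 of these, every female library lay above every male library, as for 6.2% of all genes. Ncr1 was at 32.6, 30.003 and 30.2 CPM in female non-leukemic replicates 1 to 3 and at 12.2, 12.7 and 16.7 CPM in male non-leukemic replicates 1 to 3. The female values lay close together, and the log2 difference, female minus male, was 1.13 ± 0.26 (SE, adjusted p = 0.639, edgeR). With DESeq2 Ncr1 passed (adjusted p = 0.0355), while with limma-voom 0 of the 10 genes did. Klrb1c was at 31.6, 29.9 and 24.8 CPM in the females and at 11.4, 14.2 and 14.96 CPM in the males, a difference of 1.07 ± 0.30 (adjusted p = 0.955, edgeR). Tbx21 was at 26.6, 14.98 and 14.92 CPM in the females and at 6.66, 8.04 and 11.7 CPM in the males, a difference of 1.06 ± 0.31 (adjusted p = 0.955, edgeR), and of 0.70 without female non-leukemic replicate 1. Gzmk was at 5.31, 0.699 and 0.263 CPM in the females and at 0.227, 0.177 and 0.731 CPM in the males. Its difference of 2.35 ± 1.01 (adjusted p = 0.955, edgeR) was 0.18 without female non-leukemic replicate 1. Its unadjusted p also exceeded 0.05 without female leukemic replicate 3 or male non-leukemic replicate 1 or 2 (0.0523 to 0.121, edgeR).

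In leukemic libraries, 0 of the 10 genes differed between the sexes after adjustment (0% of all genes, edgeR), and 2 were lower in females at an unadjusted p under 0.05, against 3.24% of all genes: Eomes and Tbx21. Eomes was at 22.3, 20.7 and 27.4 CPM in female leukemic replicates 1 to 3 and at 55.0, 69.2 and 49.9 CPM in male leukemic replicates 1 to 3. The female libraries were all below the male libraries, and the log2 difference, female minus male, was -1.16 ± 0.25 (SE, adjusted p = 0.382, edgeR). DESeq2 called it (adjusted p = 0.00329), while limma-voom called 0 of the 10 genes. Tbx21 was at 25.7, 27.2 and 43.1 CPM in the females and at 57.8, 69.5 and 54.7 CPM in the males, a difference of -0.79 ± 0.31 (adjusted p = 0.536, edgeR). The unadjusted p of Tbx21 exceeded 0.05 without female leukemic replicate 1 or 2 or male leukemic replicate 2 (0.0547 to 0.0795, edgeR). Prf1 likewise had every female library below every male library, so that this held for 3 of the 10 genes, as for 15% of all genes. The unadjusted p of Prf1 was 0.469. Ncr1 and Klrb1c showed no such split, with log2 differences of 0.11 ± 0.25 and 0.39 ± 0.30. Without female leukemic replicate 1 these were -0.26 and -0.08, and without female leukemic replicate 2 they were 0.26 and 0.66 (unadjusted p = 0.0250 for Klrb1c, edgeR). The T cell markers summed to 567 to 1362 CPM in female and 1185 to 1868 CPM in male leukemic libraries, and to 122 to 196 CPM in female and 88.4 to 120 CPM in male non-leukemic libraries. The NK cell markers summed to 238 to 490 CPM in female and 369 to 373 CPM in male leukemic libraries, and to 147 to 189 CPM in female and 95.0 to 147 CPM in male non-leukemic libraries. Ncr1, Klrb1c, Klrd1 and Eomes are themselves part of the NK cell sum, so it is not independent of the levels given above. The part of T cell and NK cell numbers in the differences between the sexes was not tested.

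**Figure D4:**
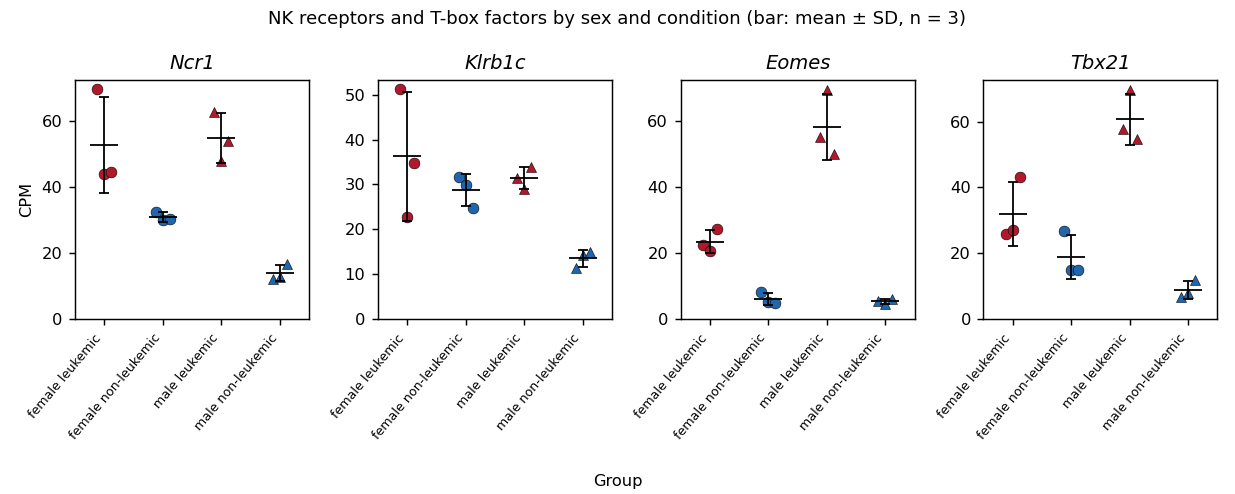
CPM of Ncr1, Klrb1c, Eomes and Tbx21 in each library of the 4 groups, with bars for the mean ± SD of 3 libraries. In non-leukemic libraries every female value lies above every male value for Ncr1, Klrb1c and Tbx21, as for 6.2% of all genes tested. Ncr1 is at 30.9 ± 1.42 in females and 13.9 ± 2.48 CPM in males there. In leukemic libraries every female value lies below every male value for Eomes and Tbx21, as for 15% of all genes. Eomes is at 23.5 ± 3.52 in females and 58.0 ± 9.99 CPM in males there. With edgeR and limma-voom none of these differences passed, while with DESeq2 those of Ncr1 (non-leukemic) and Eomes (leukemic) did.

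The other granzyme genes were nearly silent. Gzmc, beside Gzmb on chromosome 14, rose at a very low level, with 184 counts in all leukemic and 23 in all non-leukemic libraries (log2 fold change 3.38 ± 0.98, adjusted p = 0.0307, edgeR), and did not pass without the 2 libraries that stood apart. Gzmm, the only other granzyme gene of the list that could be tested, had 359 counts in leukemic and 168 in non-leukemic libraries and did not pass. Gzmd had 22 counts in leukemic and 0 in non-leukemic libraries. Gzme, Gzmg and Gzmn had 0 counts in every library, which allows at most 0.177 CPM in the shallowest. Reads of this cluster may be shared among its near-identical members.

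Genes that fill, release and protect the granules were read as lists, and over all genes tested 8.71% rose and 9.2% fell. Of 8 genes of granule contents and processing, 3 rose and 0 fell, and the median log2 fold change was 0.52. They were Ctsw, Cst7 and Calr. Ctsw encodes cathepsin W, a protease of NK and CD8 T cells, and was at 67.5 ± 20.8 CPM in leukemic and 25.1 ± 9.68 CPM in non-leukemic libraries (SD, n = 6, log2 fold change 1.44 ± 0.25, adjusted p = 0.00157, edgeR). Cst7, which encodes cystatin F, an inhibitor of granule cathepsins, rose by 1.21, and Calr, which encodes the chaperone calreticulin, by 0.72. Of 8 genes of granule release, 2 rose and 1 fell, with a median of -0.06, and the share that fell was near that over all genes. Rab27a and Unc13d, which dock and prime granules, rose by 0.58 and 0.51, and Stx11, a syntaxin of the fusion step, fell by 0.57 on the log2 scale. The list of granzyme inhibitors held 5 serpin genes, of which 3 rose and 1 fell, with a median of 1.87. One of those that rose, Serpina3g, is known for other targets. Serpinb9, which blocks granzyme B, was at 70.7 ± 19.7 CPM in leukemic and 15.2 ± 4.51 CPM in non-leukemic libraries (log2 fold change 2.16 ± 0.24, adjusted p = 7.36e-05, edgeR). Serpina3g, a serpin known to inhibit cathepsins, rose by 2.32 and Serpinb6b by 1.07. Without the 2 libraries that stood apart Serpinb6b did not pass (adjusted p = 0.0682, edgeR). In contrast, Serpinb6a fell by 0.76 on the log2 scale.

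Receptors and adaptors of NK cells were called higher in 19 of 28 genes and lower in 1, against 8.71% and 9.2% of all genes tested. The median log2 fold change was 1.20. Genes of the NK cell marker list above stand in this list too, so the counts of both lists are not independent. Of the receptor genes with the lowest p, Tigit, Cd226 and Cd160 are also made by T cells. Tigit, an inhibitory receptor for the poliovirus receptor family, was at 17.0 ± 6.98 CPM in leukemic and 0.992 ± 0.842 CPM in non-leukemic libraries (SD, n = 6, log2 fold change 3.99 ± 0.58, adjusted p = 0.000515, edgeR). Its activating counterpart Cd226 rose by 2.14, and Cd160, a receptor of cytotoxic lymphocytes, by 2.31. Klra1, an Ly49 receptor gene of the NK complex, rose by 1.76, and its reads may be shared with other Ly49 genes. Sh2d1b1, which encodes the signalling adaptor EAT-2, fell by 0.96 on the log2 scale. It did not pass without the 2 libraries that stood apart. Of 5 NK receptor ligands that could be tested, 3 rose: H2-T23, which encodes Qa-1, the ligand of the CD94 and NKG2A pair, by 0.62, Cd48 by 1.03 and Ulbp1 by 0.68.

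Genes of the cytokine inputs to NK cells were called higher in 9 of 14 and lower in 0, against 8.71% and 9.2% of all genes tested. The median log2 fold change was 1.09. Il2rb, the receptor chain shared by IL-2 and IL-15, was at 366 ± 109.9 CPM in leukemic and 79.0 ± 28.4 CPM in non-leukemic libraries (SD, n = 6, log2 fold change 2.16 ± 0.27, adjusted p = 0.000185, edgeR). The IL-12 receptor chain Il12rb1 rose by 2.39, the IL-21 receptor Il21r by 1.62 and Stat4, which carries the IL-12 signal, by 1.32. Of 12 other transcription factors of NK and T cells, 7 rose and 0 fell. Those with the lowest p were the T cell factors Tcf7 (1.84), Tox (2.74) and Bcl11b (2.62), and Ets1 (0.84). Of 8 other killing and effector ligands, 6 rose and 0 fell, with a median of 1.63. Ifng, which encodes interferon gamma, was at 24.5 ± 12.7 CPM in leukemic and 2.50 ± 1.01 CPM in non-leukemic libraries (log2 fold change 3.26 ± 0.43, adjusted p = 0.000226, edgeR). The death ligand gene Tnfsf10 rose by 1.76, the chemokine gene Xcl1 by 1.84 and the lymphotoxin gene Ltb by 1.33.

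**Figure D5:**
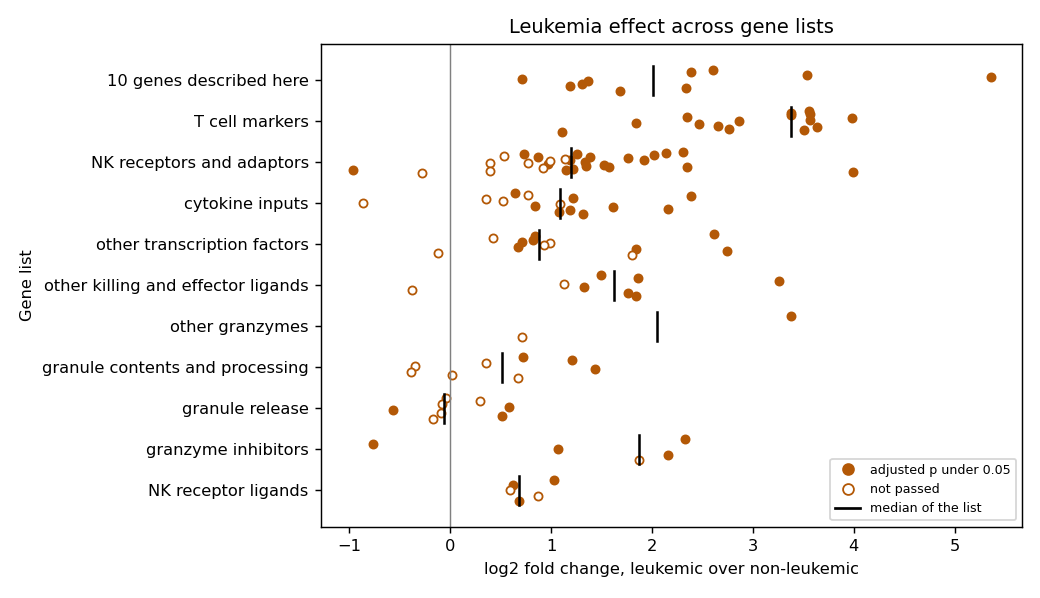
Log2 fold change, leukemic over non-leukemic, of each tested gene in the 10 genes described here and in lists of related genes, filled where the adjusted p was under 0.05, with a bar at each list's median. The T cell markers have the highest median (3.37), the 10 genes have 2.01, and the genes of granule release have -0.06.

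Marker lists of further cell types moved in both directions, and their part in the results was not tested. Over all genes tested 8.71% rose and 9.2% fell. The gate was meant to remove neutrophils by Ly6g. Markers of basophils and mast cells rose in 7 of 9 tested and fell in 0, with sums of 9306 to 33739 CPM in leukemic and 3694 to 7988 CPM in non-leukemic libraries. Without female leukemic replicate 2 the highest leukemic sum was 15076 CPM. The lowest p values were those of Gata2, Fcer1a, Prss34 and Ms4a2, with log2 fold changes of 1.35, 1.90, 1.52 and 1.37. Of 6 plasmacytoid dendritic cell markers, 1 rose (Bst2, 0.74) and 2 fell (Siglech, -1.30, and Ccr9, -0.90). Their sums were 212 to 273 CPM in leukemic and 160 to 255 CPM in non-leukemic libraries. None of 6 tested markers of type 2 innate lymphoid cells and none of 5 B cell markers passed. Of 10 macrophage markers 0 rose and 5 fell, with Vcam1, Adgre1, Csf1r and Siglec1 at -1.40, -1.25, -1.03 and -1.46. All 8 erythroid markers fell, as did 6 of 8 neutrophil markers. Erythroid sums were 647 to 1313 CPM in leukemic and 14030 to 18443.5 CPM in non-leukemic libraries. Neutrophil sums were 11812.5 to 25037 CPM in leukemic and 26927 to 61656 CPM in non-leukemic libraries. In every library the neutrophil markers summed to more than the macrophage markers. No gene of these lists was at 0 in every library. Ptprc, which encodes the gate antigen CD45, was at 593 ± 222 CPM in leukemic and 347 ± 52.9 CPM in non-leukemic libraries (SD, n = 6, log2 fold change 0.64 ± 0.18, adjusted p = 0.0238, edgeR). The groups overlapped. In males Ptprc was at 701 to 811 CPM in leukemic and 332 to 425 CPM in non-leukemic libraries. In females it was at 259 to 663 CPM in leukemic and 305 to 310 CPM in non-leukemic libraries.

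The genes whose pattern over the 12 libraries was most like that of Gzmk, Gzmb and Ncr1 differed among these 3. Likeness was the mean absolute difference of log2(CPM + 0.5) after each gene was centred on its own mean, over 11995 genes. Nearest to Gzmk were Tnfrsf4, which encodes the co-stimulatory receptor OX40, the cytokine gene Il21 and Pdcd1, which encodes PD-1, at 0.67, 0.69 and 0.72, where the median over genes was 2.54. Il21 was at 13.2 ± 5.25 CPM in leukemic and 0.0581 ± 0.120 CPM in non-leukemic libraries (SD, n = 6). Its non-leukemic mean lay below the 0.113 to 0.177 CPM that a count of 0 allows there. The distance of Il21 to Gzmk thus depends in part on the 0.5 CPM added. Nearest to Gzmb were Iigp1, a GTPase gene induced by interferon gamma, and the T cell receptor chains Cd3e and Cd3d, at 0.36, 0.39 and 0.40, with a median over genes of 1.75. Nearest to Ncr1 were Ctsw, the signalling suppressor gene Socs2 and the noncoding RNA Gimap1os, at 0.16, 0.19 and 0.22, with a median over genes of 0.70. These distances describe 12 libraries of 2 conditions and were not tested.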

How the data were processed

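RNA was extracted with a column kit, 1 ng was amplified as full-length cDNA and 150 pg of that was tagmented, per the labels' protocols. The kit keeps no record of strand and no molecular identifiers, so reads of overlapping genes on either strand cannot be told apart, and floors cover counting error only. The values are raw counts per gene deposited by the authors, without normalization. STAR 2.7.9a with the build GRCm39 and featureCounts of Subread are named in the submitters' processing notes, as are fastp 0.23.1 and bcl2fastq 2.19.1. The gene annotation behind the counts is not given in the sources used here.

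From the counts, CPM were computed on column totals. Levels per kilobase used exon lengths of GENCODE M21 (GRCm38), which may differ from the counted annotation. Differences were fitted on the whole table with edgeR 4.0.16 (filterByExpr, TMM scaling, robust quasi-likelihood F test, Benjamini-Hochberg adjustment over 15758 genes) in R 4.3.3, with sex as a term, or as contrasts of 4 group means for effects by sex. SE is the log2 fold change divided by the square root of F. The alternatives comprised RLE (relative log expression) scaling, DESeq2 1.42.0, limma-voom (limma 3.58.1), no filter, a filter of 5 CPM in 3 libraries, no sex term, replicate number as a block, each sex alone, and leaving out each library or the 2 that stood apart; for ratios, other pseudocounts and each sex alone. In data simulated for the leukemia comparison over 15144 genes, 54.1% of 2-fold and 99.0% of 4-fold changes were recovered, with 9.58% of 167 calls false. The simulation gave all genes the same dispersion and changed fewer genes than were called in the data. It held no sex effect and no library that stood apart. Its rates are therefore those of the simulation and not of these data.

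The labels do not say that replicates were separate mice, so a p may measure technical spread only. The least different pair of libraries of a group had a chi-square per degree of freedom of 22.6, so none was a copy. The genes, lists, ratios and alternatives were chosen with earlier results of these data known. Named in the text are the 10 genes, up to 4 called genes with the lowest p per list and direction, list genes with 0 counts throughout, Cd3e, Cd8a, Adgre1, Ptprc and the 3 nearest genes by likeness. Gzmd and Gzmm were named after their values were seen.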

Additional observations from a re-analysis of the deposited data

Results flagged for a closer look

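Of 32 groups of 6 values examined among the 10 genes and the ratios, 4 had a highest library whose gap to the next, as a share of the group's range, exceeded Dixon's 95% critical value. That critical value assumes normally distributed values, and all 4 flags were CPM that were not on a log scale. The rate of flags by chance is therefore not known here. Gzmk was at 102.8 CPM in male leukemic replicate 2, against 22.0 to 48.9 CPM in the other leukemic libraries. The T cell markers summed to 1868 CPM in that library, the highest of the 12. Gzmk was at 5.31 CPM in female non-leukemic replicate 1, against 0.177 to 0.731 CPM in the other non-leukemic libraries, and the T cell markers summed to 196 CPM there, the highest of the non-leukemic libraries. Nkg7 was at 1135 CPM in female leukemic replicate 1, against 545 to 703 CPM in the other leukemic libraries. Klrd1 was at 82.0 CPM in the same library, against 22.96 to 39.0 CPM in the others. That library had the fewest genes detected, 17891, and the highest NK cell marker sum, 490 CPM. Klrd1 is itself part of that sum. The part of T cell and NK cell numbers in these 4 values was not tested.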

How the results depend on the processing

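The rise of Gzma, Gzmb, Gzmk, Prf1, Nkg7, Klrd1, Ncr1, Eomes and Tbx21 passed under all 20 alternatives, whereas Klrb1c failed in 13 of 20 (0.58 to 0.91, adjusted p 0.00482 to 0.161), among them limma-voom, no sex term and the fit without the 2 libraries that stood apart. With the replicate number as a block, 9 of the 10 rose, as did 1231 of all 15758 genes tested. Klrb1c then had an adjusted p of 0.0792 (edgeR). The labels do not say whether the numbers pair the libraries. In the data, 18 same-numbered pairs correlated at -0.113 to 0.0782 and other pairs at -0.094 to 0.107, and 6 of 12 libraries correlated best with their own number. These correlations use deviations from the means of 3 libraries and cannot decide whether the libraries were paired. The 6 ratios kept sign and call (block adjusted p = 0.00926). Leaving out 1 library, 9 to 10 genes rose in both sexes together, 6 to 9 in males and 3 to 8 in females. Over all genes, 998 to 1958 were then higher and 1025 to 1952 lower in both sexes together. In males, 259 to 987 genes were higher and 254 to 1100 lower, the most without female leukemic replicate 1 and the fewest without male leukemic replicate 2. In females 218 to 903 were higher and 286 to 926 lower, the fewest without female non-leukemic replicate 1. Between the sexes, 0 to 3 genes were higher and 0 to 1 lower in female leukemic libraries, and 0 to 1 higher and 0 to 3 lower in female non-leukemic libraries. DESeq2 called 938 genes higher and 1115 lower in males, and 1205 and 1161 in females. For the sex difference in the effect it called 10 and 13 (1 of the 10 genes), for sex in leukemic libraries 87 and 33 (1 of the 10), and in non-leukemic libraries 16 and 19 (1 of the 10). In these same comparisons limma-voom called 0 genes. Female libraries alone gave 364 higher genes. Without the 2 libraries that stood apart, 2421 genes were higher and 2296 lower in both sexes together, 1364 and 1364 in males, and 1141 and 1227 in females. In leukemic libraries 1 gene was then lower in females. Among the lists, 8 macrophage markers then fell, 1 neutrophil and 1 type 2 innate lymphoid marker rose, 5 genes of granule contents rose and 1 fell, 1 cytokine input gene fell, 0 NK receptor genes fell, 0 other granzymes rose, and 2 granzyme inhibitors rose, not 3. The cause was not tested. Values of Gzmk and Gzmc in non-leukemic libraries rest on 157 and 23 counts in all, which limits their precision.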
